A study of Homo sapiens with 6 samples.

Results

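GAS5 and 6 members of the small nucleolar RNA host gene family, SNHG1, SNHG5, SNHG6, SNHG7, SNHG8 and SNHG12, were followed through 6 RNA-seq libraries of HEK293T cells. These 7 host genes were chosen by symbol from the 23204 gene symbols of the deposited tables, and all 7 were found. The tables list 11 entries for them, because SNHG7 and SNHG8 each have 3 annotated transcripts, and for each symbol the entry with the highest mean RPKM (reads scaled by transcript length and by library depth) over the 6 libraries was kept.

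The study asked how the RNA helicase DDX3X and its medulloblastoma-associated mutants act on translation and on RNA levels. HEK293T is a human embryonic kidney cell line. In the plasmid arm, cells were transfected transiently with 5 µg of plasmid for GFP alone, GFP-DDX3X WT, GFP-DDX3X T275M or GFP-DDX3X G302V, and GFP-positive cells were collected by flow cytometry after 32 h (the labels also mention 30 h). In the siRNA arm, cells received control siRNA or DDX3X siRNA for 48 h, with no sort stated. All plasmid cells still carried their own DDX3X gene, so the mutants were expressed on top of it. Each of these 6 groups was 1 library, so no difference below has a replicate check, no p-value was computed, and the 95% intervals given cover counting error only. These were bulk samples, in which fewer cells with a given RNA and less of that RNA per cell cannot be told apart.

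Small nucleolar RNAs (snoRNAs) guide the chemical modification of ribosomal RNA, and most human snoRNAs are cut out of the introns of a host transcript. The spliced host RNAs of the GAS5 and SNHG type carry no long reading frame, many begin with a 5′ terminal oligopyrimidine (TOP) tract like the mRNAs of ribosomal proteins, and ribosomes that engage their short frames expose them to nonsense-mediated decay (NMD). Their level is for that reason known to be sensitive to translation and to NMD, while the excised snoRNAs are protected by their own proteins.

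By the GENCODE annotation, GAS5 lies at chr1:173827697-173838020 and SNHG12 at chr1:28905050-28909644, both on the minus strand. SNHG1 (chr11:62619450-62623425), SNHG5 (chr6:86360209-86388650), SNHG6 (chr8:67832796-67838633) and SNHG7 (chr9:139615818-139622636) are also on the minus strand, and SNHG8 (chr4:119199858-119206471) is on the plus strand.

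DDX3X itself was at 107 RPKM with control siRNA and 31.3 RPKM with DDX3X siRNA. It was at 119 RPKM with GFP, 2894 with GFP-DDX3X WT, 3279 with T275M and 1906 with G302V, so the DDX3X level followed the labels in every library and the constructs differed in it. The libraries held 43720000 to 67520000 recovered reads, except the DDX3X siRNA library with 180870000. The labels give the cell type as Neuronal. Of 10 neuronal markers, all were under 10 RPKM in every library, 6 were under 1 RPKM, and the highest was SYP with 5.59. Of 4 epithelial markers, 2 were also under 10 RPKM in every library (CDH1 up to 1.45 and EPCAM up to 0.891), and the highest value was the 47.3 RPKM of the keratin KRT18. The summed level of the 10 neuronal markers ranged from 10.4 to 15.6 RPKM. The leukocyte marker PTPRC reached 0.0047 RPKM, and the globin gene HBB was at 0 in all 6 libraries.

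The start regions of the hosts are shown first, since a TOP tract is what these genes are best known for. Each window runs from 40 bases before to 39 bases after the first base of the commonest start among the gene's GENCODE v44 transcripts (GRCh37), and capitals mark a run of 5 or more pyrimidines (C or T) that opens with C within 2 bases of that start, searched on the transcribed strand only.
GAS5 chr1:173837088-173837167 (minus strand): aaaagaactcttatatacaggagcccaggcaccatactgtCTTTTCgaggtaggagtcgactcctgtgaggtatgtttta
SNHG1 chr11:62623318-62623397 (minus strand): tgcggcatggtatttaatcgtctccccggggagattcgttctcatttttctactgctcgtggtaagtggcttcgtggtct
SNHG5 chr6:86388427-86388506 (minus strand): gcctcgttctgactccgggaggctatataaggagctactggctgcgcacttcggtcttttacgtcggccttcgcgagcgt
SNHG7 chr9:139622597-139622676 (minus strand): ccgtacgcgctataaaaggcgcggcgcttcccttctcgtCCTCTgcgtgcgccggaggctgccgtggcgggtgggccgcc
SNHG8 chr4:119199873-119199952 (plus strand): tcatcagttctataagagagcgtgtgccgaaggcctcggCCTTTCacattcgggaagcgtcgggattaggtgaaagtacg
SNHG12 chr1:28908346-28908425 (minus strand): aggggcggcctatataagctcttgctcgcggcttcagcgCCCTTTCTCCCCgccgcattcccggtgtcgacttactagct
Such a run was present in 5 of the 7 hosts (71.4%, SNHG6 included), with a length of 12 bases in SNHG12, 8 in SNHG6, 6 in GAS5 and SNHG8 and 5 in SNHG7. SNHG1 and SNHG5 had no run of that length at the start used here. The same search found a run in 1 of 8 other noncoding hosts (12.5%), in 23 of 43 protein-coding hosts (53.5%) and in 1165 of 11442 genes that reached 1 RPKM in a library (10.2%). Genes deposited under an older symbol were mostly left out of it, among them SNHG16, SNHG17, SNHG18, SNHG20, ZFAS1 and DANCR. These hosts are annotated but were not searched, so the 12.5% does not describe the other noncoding hosts as a set. A match describes these letters only, and the start was taken from the annotation, not from a measurement in these cells. The start used belonged to 4 of 19 annotated transcripts in SNHG12, 5 of 15 in SNHG8, 3 of 8 in SNHG6 and 25 of 80 in SNHG1. It belonged to 50 of 91 in GAS5, 61 of 89 in SNHG5 and 6 of 10 in SNHG7.

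In the transcript that began at or near the start above and was closest in length to the table entry, the first ATG opened a frame of 42 codons in SNHG1, 35 in SNHG5, 25 in SNHG6, 12 in SNHG7, 26 in SNHG8 and 49 in SNHG12. For SNHG8 that transcript has 394 bases and the entry 274, so its frame and junctions are not those of the entry measured. The other hosts differed less, with 1109 bases and an entry of 1118 for SNHG1, 518 and 507 for SNHG5 and 460 and 472 for SNHG6. For SNHG7 the lengths were 818 and 853, and for SNHG12 they were 728 and 739. Their frames and junctions may thus also differ from those of the entries. An exon junction more than 50 bases after a stop codon is the usual trigger of NMD. Such junctions numbered 5 of 10 in SNHG1, 2 of 5 in SNHG5, 2 of 3 in SNHG6, 2 of 4 in SNHG7, 1 of 3 in SNHG8 and 4 of 5 in SNHG12. The first frames of 3 hosts on which the comparisons below turn most are shown as spliced sequence, with the ATG and the stop codon in capitals.
SNHG1: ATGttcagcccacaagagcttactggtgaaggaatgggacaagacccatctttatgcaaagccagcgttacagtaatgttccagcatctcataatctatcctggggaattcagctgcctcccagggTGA
SNHG12: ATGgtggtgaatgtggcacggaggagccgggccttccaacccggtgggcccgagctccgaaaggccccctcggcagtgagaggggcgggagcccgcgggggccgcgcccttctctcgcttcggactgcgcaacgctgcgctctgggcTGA
SNHG7: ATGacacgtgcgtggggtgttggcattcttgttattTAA
No reading of these frames by ribosomes was measured in the libraries described here.

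The 7 hosts were all well detected, between 23.5 and 378 RPKM, and together they took 0.0525% of the reads with control siRNA and 0.0558% with DDX3X siRNA. Their share was 0.0627% with GFP, 0.0686% with WT, 0.0686% with T275M and 0.0634% with G302V. GAS5, named for its accumulation in growth-arrested cells, had the highest mean level of the 7 with 313 RPKM. It was at 252 RPKM with control siRNA and 274 with DDX3X siRNA, and at 284 with GFP, 356 with WT, 378 with T275M and 332 with G302V. All 3 DDX3X constructs were above the other 3 libraries, and with the libraries ordered by level every neighboring pair differed beyond counting error.

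SNHG1 hosts a row of box C/D snoRNAs. It was at 94.3 RPKM with control siRNA, 105 with DDX3X siRNA, 165 with GFP, 154 with WT, 147 with T275M and 132 with G302V. Unlike for GAS5, GFP alone was the highest of the 6 libraries, above all 3 constructs, and both siRNA libraries were the lowest, and each neighboring pair differed beyond counting error. SNHG5, the host of SNORD50A and SNORD50B, at 252 RPKM with control siRNA and 238 with DDX3X siRNA, and at 244, 255, 266 and 243 with GFP, WT, T275M and G302V, stayed within a range of 1.12-fold. In SNHG5 only T275M and its neighbor WT differed beyond counting error, whereas the other 4 neighboring pairs did not.

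SNHG6, the host of SNORD87, was at 75.5 RPKM with control siRNA, 73.5 with DDX3X siRNA, 87.4 with GFP, 104 with WT, 105 with T275M and 98.7 with G302V. As for GAS5, the 3 constructs were the highest libraries, although they could not be ordered among themselves by neighboring pairs. SNHG7, the host of SNORA17 and SNORA43, was highest with DDX3X siRNA (75.3 RPKM) and G302V (73.3), which did not differ beyond counting error, and lower with WT (63.0), control siRNA (60.96), GFP (57.1) and T275M (55.5). SNHG8, the host of SNORA24, showed no neighboring pair that differed beyond counting error on the 274-base entry used here. That entry was at 98.2 RPKM for control siRNA, 101 for DDX3X siRNA, 106 for GFP, 105 for WT, 98.5 for T275M and 101 for G302V. SNHG12, which holds both H/ACA and C/D snoRNAs and had the lowest mean level (29.2 RPKM), was at 25.0 with control siRNA, 27.8 with DDX3X siRNA, 27.5 with GFP, 38.6 with WT, 32.6 with T275M and 23.5 with G302V. WT was the highest and G302V the lowest library for SNHG12, a range of 1.64-fold, and the widest range among the 7 hosts was the 1.75-fold of SNHG1.

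**Figure D1:**
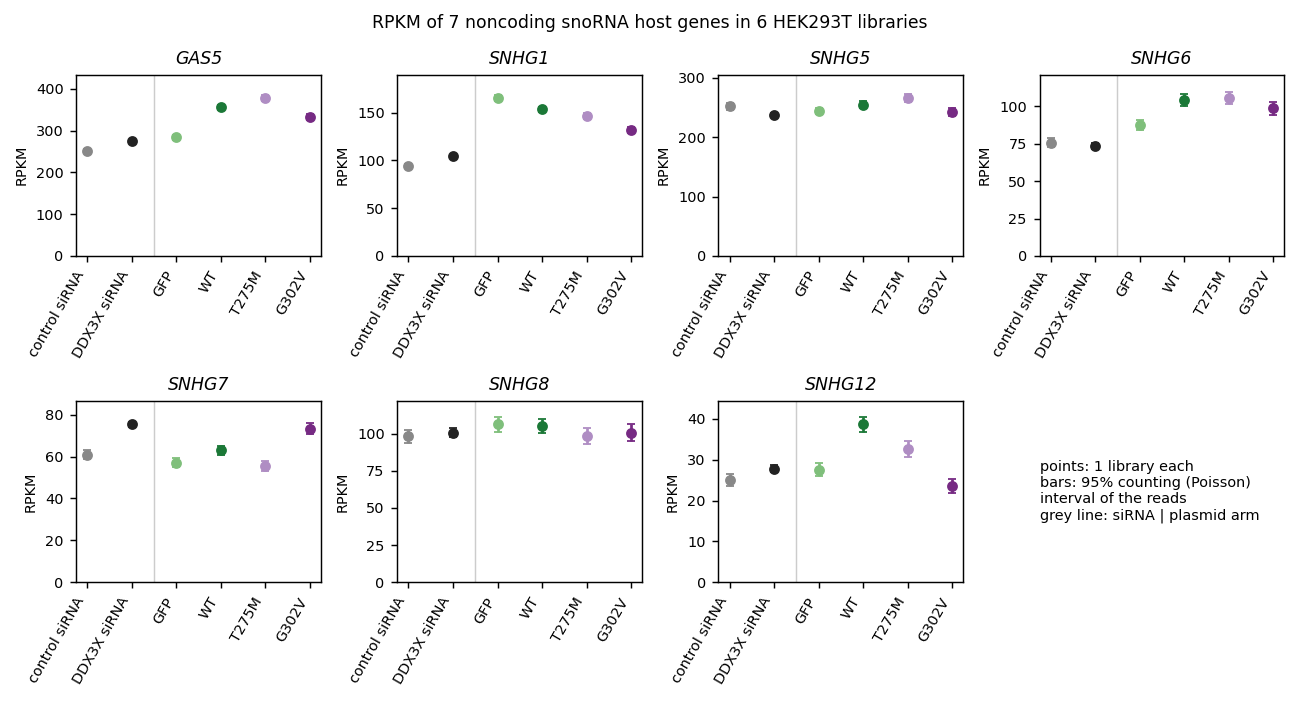
RPKM (vertical axes, each from 0) of the 7 host genes in the 6 libraries (horizontal axes), 1 point per library with the 95% counting interval of its reads as the bar; the grey line separates the siRNA arm from the plasmid arm. GAS5 and SNHG6 are highest with the 3 DDX3X constructs, SNHG1 is highest with GFP (165 RPKM), SNHG12 ranges from 23.5 (G302V) to 38.6 RPKM (WT), and SNHG5 and SNHG8 stay nearly level.

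The first comparison asked what loss of DDX3X did to the hosts. Ratios are given as differences of log2(RPKM + 1), which understate the change of low genes, and a gene counted as tested when it had at least 1 RPKM and 10 reads in 1 of the 2 libraries. With DDX3X siRNA against control siRNA, SNHG7 was the host furthest above its control, by 0.30 (0.25 to 0.35), above 91.4% of the 12694 genes tested. SNHG1 was higher by 0.15 (0.11 to 0.19), SNHG12 by 0.15 (0.057 to 0.24) and GAS5 by 0.12 (0.089 to 0.15), whereas SNHG5 was lower at -0.082 (-0.12 to -0.046). The intervals of SNHG6 (-0.11 to 0.028) and SNHG8 (-0.039 to 0.12) held 0. None of the 7 hosts was past 2-fold, where 0.11% of all genes were, or past 1.5-fold, where 2% were. Their intervals were above 0 for 4 hosts and below 0 for 1, beside 32.8% and 40.1% of all genes tested, and their median was 0.12 beside -0.024 for all genes. With a trend of the ratios with level and length removed, the median was 0.25 and SNHG5 turned to 0.059.

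With WT DDX3X against GFP, the furthest above GFP were SNHG12 at 0.47 (0.37 to 0.58), above 96.4% of the 12915 genes tested, and GAS5 at 0.33 (0.29 to 0.36), above 90.6%. SNHG6 was higher by 0.25 (0.17 to 0.33), SNHG7 by 0.14 (0.069 to 0.21) and SNHG5 by 0.063 (0.016 to 0.11). SNHG1 went the other way, at -0.11 (-0.14 to -0.066), and the interval of SNHG8 (-0.11 to 0.082) held 0. No host passed 2-fold (0.248% of all genes did) or 1.5-fold (2.21%). The intervals of 5 hosts were above 0 and that of 1 was below, beside 41.1% and 21.3% of all genes. The median of the 7 was 0.14, beside 0.055 over all genes. On its longest transcript SNHG7 turned to -0.031.

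The T275M mutant was set against the same GFP library. GAS5 stood highest at 0.41 (0.37 to 0.45), above 92.9% of 12912 genes, followed by SNHG6 at 0.27 (0.18 to 0.35), SNHG12 at 0.23 (0.12 to 0.35) and SNHG5 at 0.12 (0.073 to 0.17). SNHG1 was lower at -0.17 (-0.21 to -0.13), SNHG8 at -0.11 (-0.21 to -0.0021), and the interval of SNHG7 (-0.12 to 0.040) held 0. None was past 2-fold (0.372% of all genes) or 1.5-fold (2.64%). The intervals of 4 hosts were above 0 and those of 2 below, beside 44.2% and 23.4% of all genes, with a median of 0.12 beside 0.070. Median-ratio scaling brought this median to 0.062 and removal of the trend with level and length brought it to 0.28. SNHG8 turned to 0.046 with the trend removed and to 0.019 on its longest transcript.

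With G302V the picture differed by host. SNHG7 was highest against GFP at 0.36 (0.28 to 0.43), above 93.4% of 12775 genes, with GAS5 at 0.22 (0.18 to 0.27) and SNHG6 at 0.17 (0.087 to 0.26). SNHG1 was lowest at -0.32 (-0.37 to -0.28), so that only 3.08% of genes were lower, and SNHG12 was at -0.22 (-0.35 to -0.089), with 9.39% of genes lower. The intervals of SNHG5 (-0.059 to 0.044) and SNHG8 (-0.19 to 0.030) held 0. No host was past 2-fold (0.305% of all genes) or 1.5-fold (1.77%). The intervals of 3 hosts were above 0 and those of 2 below, beside 35.1% and 26.3% of all genes, and the median was -0.0075 beside 0.025, turning to 0.19 with the trend removed. All 3 of these comparisons share the GFP library, so that an error in it would move them together. GAS5 was above GFP and SNHG1 below it in all 3.

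**Figure D2:**
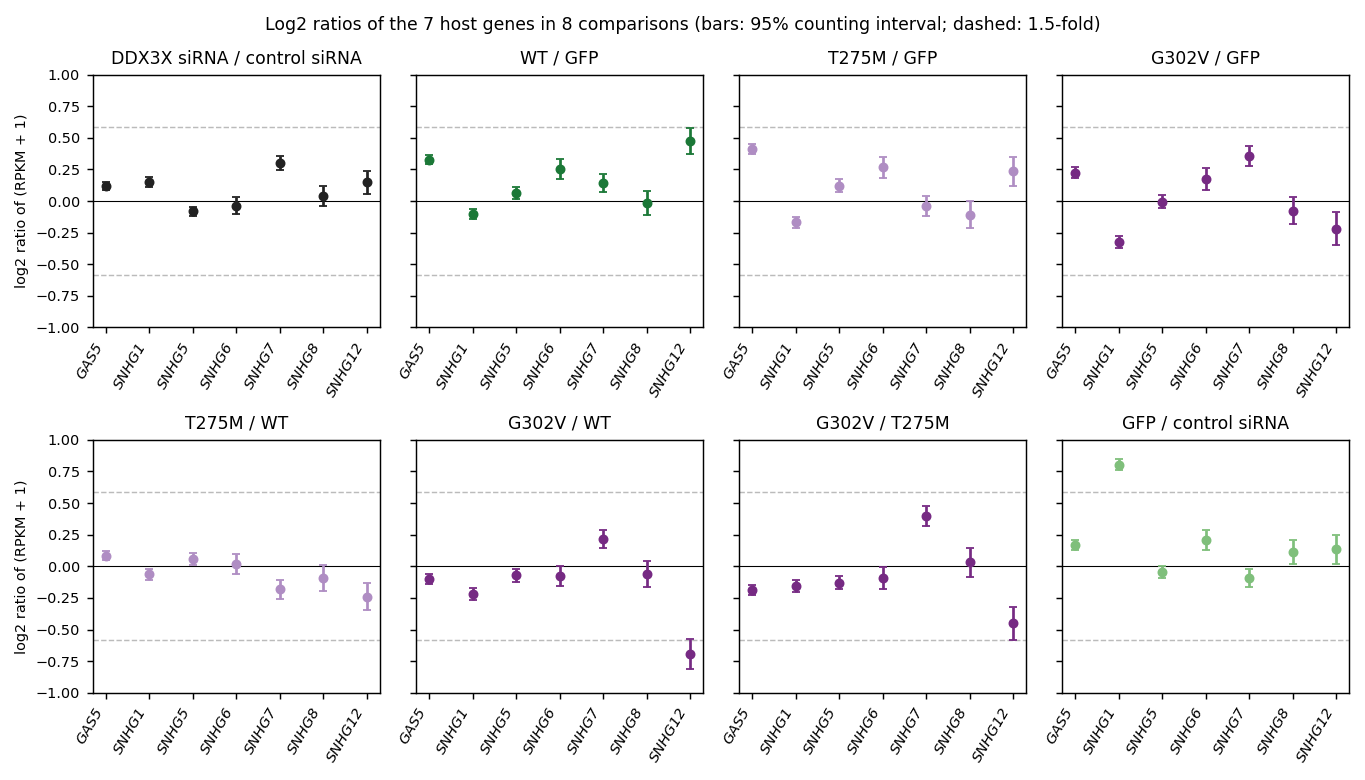
Log2 ratio of (RPKM + 1), vertical axes, of the 7 host genes in 8 comparisons, 1 panel each, with 95% counting intervals as bars and the 1.5-fold limits dashed. Beyond the limits lie only SNHG12 with G302V against WT (-0.69) and SNHG1 with GFP against control siRNA (0.80).

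Setting the constructs against each other takes GFP out of the comparison, although the constructs also differed in the DDX3X level reached. T275M against WT left the hosts close together. SNHG12 at -0.24 (-0.34 to -0.13) had only 2.94% of 12973 genes below it, and SNHG7 was at -0.18 (-0.26 to -0.11), with 6.64% below. SNHG1 was at -0.064 (-0.11 to -0.022), while GAS5 at 0.084 (0.048 to 0.12) and SNHG5 at 0.059 (0.012 to 0.11) were slightly higher with T275M. The intervals of SNHG6 (-0.060 to 0.094) and SNHG8 (-0.20 to 0.010) held 0. No host passed 2-fold (0.0771% of all genes) or 1.5-fold (0.347%). The intervals of 2 hosts were above 0 and those of 3 below, beside 24% and 20.5%, and the median was -0.064 beside 0.0046. With the trend removed, the median, which is the value of SNHG1, turned to 0.0052.

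G302V against WT held the lower of the 2 host ratios past 1.5-fold, SNHG12 at -0.69 (-0.81 to -0.57), with 0.864% of 12967 genes lower. SNHG1 was lower at -0.22 (-0.26 to -0.17), GAS5 at -0.10 (-0.14 to -0.064) and SNHG5 at -0.070 (-0.12 to -0.021). SNHG7 was higher at 0.22 (0.14 to 0.29), above 90.3% of genes, and the intervals of SNHG6 (-0.16 to 0.0040) and SNHG8 (-0.17 to 0.043) held 0. That made 1 host of 7 past 1.5-fold, beside 1.76% of all genes, and none past 2-fold, beside 0.185%. The intervals of 1 host were above 0 and of 4 below, beside 26.2% and 35.8%, and the median was -0.076 beside -0.034. With the trend removed the median turned to 0.058, GAS5 to 0.017 and SNHG5 to 0.058, while SNHG12 stayed lowest at -0.55. On its longest transcript SNHG7 was at 0.012 (-0.091 to 0.11). The -0.55 of SNHG12 with the trend removed, and its -0.54 with a pseudocount of 10 RPKM, are inside the 1.5-fold limit.

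Directly between the mutants, G302V against T275M, SNHG7 was higher at 0.40 (0.32 to 0.48), above 99.4% of 12925 genes, and SNHG12 lower at -0.45 (-0.58 to -0.32), with 2.15% of genes below it. GAS5 was at -0.19 (-0.23 to -0.15), SNHG1 at -0.16 (-0.20 to -0.11), SNHG5 at -0.13 (-0.18 to -0.077) and SNHG6 at -0.094 (-0.18 to -0.0084), all lower with G302V, and the interval of SNHG8 (-0.083 to 0.14) held 0. None was past 2-fold (0.178% of all genes) or 1.5-fold (1.2%). The intervals of 1 host were above 0 and of 5 below, beside 19.7% and 31.5%, with a median of -0.13 beside -0.031. On its longest transcript SNHG7 was at 0.14 (0.028 to 0.25).

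The control libraries of the arms were also set side by side. GFP against control siRNA gave the largest of all 56 host ratios, SNHG1 at 0.80 (0.76 to 0.85), above 99.4% of 12730 genes. SNHG6 followed at 0.21 (0.13 to 0.29), GAS5 at 0.17 (0.13 to 0.21), SNHG12 at 0.13 (0.021 to 0.25) and SNHG8 at 0.11 (0.016 to 0.21). SNHG7 was lower at -0.094 (-0.17 to -0.022), and the interval of SNHG5 (-0.091 to 0.00074) held 0. SNHG1 was the only host past 1.5-fold, beside 2.33% of all genes, and no host was past 2-fold, beside 0.503%. The intervals of 5 hosts were above 0 and that of 1 below, beside 33.2% and 31.3%, and the median was 0.13 beside 0.0093. SNHG8 turned to -0.035 with the trend removed. Plasmid, time and sort all differ between these libraries and cannot be told apart. Over the 8 comparisons, 25 of the 56 host ratios had an interval above 0, 19 had one below 0 and 2 were past 1.5-fold.

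A ratio of 2 hosts inside a library does not depend on how the libraries were scaled. GAS5 over SNHG1, a pair chosen after its values were seen, was 2.68 (2.60 to 2.76) with control siRNA, 2.62 (2.57 to 2.66) with DDX3X siRNA and 1.72 (1.67 to 1.77) with GFP. In the same units of RPKM it was 2.32 (2.26 to 2.38) with WT, 2.57 (2.50 to 2.65) with T275M and 2.52 (2.44 to 2.60) with G302V. The GFP library thus stood below the other 5 in this ratio, the siRNA libraries included. SNHG7 over SNHG12, chosen likewise, was 2.44 (2.29 to 2.60) with control siRNA, 2.71 (2.61 to 2.82) with DDX3X siRNA and 2.07 (1.93 to 2.22) with GFP. It was 1.63 (1.54 to 1.73) with WT, 1.70 (1.59 to 1.83) with T275M and 3.12 (2.88 to 3.38) with G302V. Here G302V was the highest of the 6 libraries and WT and T275M were the lowest.

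For SNHG7 and SNHG8 the choice of transcript mattered. The SNHG7 entry used here is 853 bases long, and a second spliced entry of 968 bases ran in parallel with it, at 51.7, 64.3, 49.0, 53.6, 47.7 and 63.2 RPKM in control siRNA, DDX3X siRNA, GFP, WT, T275M and G302V. The longest entry, of 2159 bases, was lower, at 12.1, 13.8, 12.1, 11.8, 10.7 and 11.9 RPKM in the same order. On that long entry, DDX3X siRNA against control siRNA was 0.17 (0.099 to 0.24), T275M against GFP was -0.16 (-0.26 to -0.053) and G302V against GFP was -0.019 (-0.12 to 0.085), so the higher SNHG7 level with G302V than with GFP was seen for the short entries only. The 619-base entry of SNHG8 was at 58.8, 62.3, 60.5, 65.0, 61.3 and 58.6 RPKM in the same order, and the 274-base entry used here was higher in every library. On the 619-base entry, DDX3X siRNA against control siRNA was 0.081 (0.016 to 0.15) and WT against GFP was 0.10 (0.018 to 0.18). G302V against WT was -0.15 (-0.24 to -0.056) on it. The 274-base entry had intervals that held 0 in these comparisons. For T275M against GFP and GFP against control siRNA it was the 619-base entry whose interval held 0. The remaining SNHG8 entry, of 468 bases, was at 0.064 (-0.00094 to 0.13) for DDX3X siRNA against control siRNA. It was at 0.095 (0.012 to 0.18) for WT against GFP and at -0.16 (-0.25 to -0.066) for G302V against WT.

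Within the genomic span of the 7 hosts the tables hold 28 snoRNA entries, 22 box C/D snoRNAs (SNORD) and 6 box H/ACA snoRNAs (SNORA). GAS5 held 10 of them, SNHG1 8, SNHG12 4, SNHG5 and SNHG7 2 each, and SNHG6 and SNHG8 1 each. The 4 GAS5 guests below are shown as examples of the box C/D layout, on GRCh37, with capitals for the C box (TGATGA within the first 15 bases) and the D box (CTGA within the last 15), both searched on the snoRNA strand only.
SNORD76 chr1:173835773-173835853 (minus strand): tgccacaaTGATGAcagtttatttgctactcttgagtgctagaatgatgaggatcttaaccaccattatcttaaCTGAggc
SNORD44 chr1:173835106-173835166 (minus strand): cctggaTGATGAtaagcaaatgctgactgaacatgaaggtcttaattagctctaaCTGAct
SNORD80 chr1:173833971-173834041 (minus strand): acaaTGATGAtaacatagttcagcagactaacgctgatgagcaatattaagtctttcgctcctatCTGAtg
SNORD81 chr1:173833313-173833355 (minus strand): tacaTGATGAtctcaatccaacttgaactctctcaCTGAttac
The 5 SNHG1 guests with both boxes follow. Of the 7 hosts, SNHG1 and the sum of its guests had the highest ratios of GFP against control siRNA. Single guests of other hosts could lie above some of those shown, as did SNORA44 of SNHG12 (1.52) beside SNORD29 (1.47) and SNORD31 (1.49).
SNORD25 chr11:62623037-62623103 (minus strand): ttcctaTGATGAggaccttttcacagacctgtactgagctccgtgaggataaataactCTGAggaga
SNORD27 chr11:62622484-62622555 (minus strand): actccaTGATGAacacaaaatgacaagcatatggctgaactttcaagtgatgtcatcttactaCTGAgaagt
SNORD29 chr11:62621376-62621440 (minus strand): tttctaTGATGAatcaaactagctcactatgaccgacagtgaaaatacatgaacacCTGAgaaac
SNORD30 chr11:62621135-62621204 (minus strand): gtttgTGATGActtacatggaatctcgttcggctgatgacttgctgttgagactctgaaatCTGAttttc
SNORD31 chr11:62620798-62620865 (minus strand): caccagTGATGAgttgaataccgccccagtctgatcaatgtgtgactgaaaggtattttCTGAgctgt
Both boxes were found in 14 of the 22 SNORD guests (63.6%), close to the 157 of 252 SNORD entries of the whole table (62.3%), and in 0 of 105 SNORA entries. The search allowed no mismatch, and an entry without a match may still be a box C/D snoRNA.

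Against GFP, the GAS5 guests went the other way than GAS5 with all 3 constructs. The 10 GAS5 guests summed to 39.3 RPM (reads scaled to library depth alone, with no division by length) with control siRNA, 54.4 with DDX3X siRNA, 61.7 with GFP, 46.6 with WT, 46.2 with T275M and 42.3 with G302V. All 10 were lower with each construct than with GFP, at -0.41 (-0.48 to -0.33), -0.42 (-0.49 to -0.34) and -0.55 (-0.63 to -0.46) on the log2 scale for their sum with WT, T275M and G302V, while the GAS5 host RNA was higher. The intervals of 9, 7 and 10 of these guests were below 0, beside 21.3%, 23.4% and 26.3% of all genes tested. With G302V both the guest sum and GAS5 were lower than with WT, at -0.14 (-0.22 to -0.055) and -0.10 (-0.14 to -0.064). With the 3 constructs the guests gave 20.7, 19.4 and 20.2 reads for each 100 reads of spliced GAS5, against 34.4 with GFP, 24.7 with control siRNA and 31.4 with DDX3X siRNA.

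For SNHG1, the host and the sum of its guests had the same sign in all 8 comparisons. Its 8 guests summed to 21.3 RPM with control siRNA, 25.7 with DDX3X siRNA, 64.0 with GFP, 46.0 with WT, 43.3 with T275M and 36.9 with G302V. Against GFP all 8 were lower with each construct, with an interval below 0 for each of them. Of all genes tested, 21.3%, 23.4% and 26.3% had an interval below 0 with WT, T275M and G302V. Of the other snoRNA entries tested, 43 of 163, 61 of 158 and 74 of 162 did. GFP against control siRNA gave a guest sum higher by 1.59 (1.502 to 1.68) on the log2 scale, beside 0.81 (0.77 to 0.85) for the host in RPM. SNORD30 had the highest ratio of the guests there (1.94), at 114 RPKM with GFP and 29.0 with control siRNA. The 4 SNHG12 guests were all lower with WT than with GFP, at -0.18 (-0.36 to 0.013) for their sum, although SNHG12 itself was higher. None of these 4 guests had an interval below 0 there. SNORA24, the guest of SNHG8, was the only guest with an interval below 0 for GFP against control siRNA, at 6.40 RPKM beside 11.0 with control siRNA.

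Taking all 28 guests, their median ratio stood at 0.34 after DDX3X siRNA, at -0.41, -0.42 and -0.60 with WT, T275M and G302V against GFP, and at 0.87 for GFP against control siRNA. The 329 other snoRNA entries had medians of 0.055, -0.16, -0.26, -0.36 and 0.31 in the same order, over the 158 to 169 entries tested in a comparison. The other snoRNAs thus had the same sign as the guests in each of these comparisons, with smaller medians. The library kit selects RNA with a poly(A) tail, which mature snoRNAs lack, so reads of finished snoRNAs and of unspliced host introns cannot be told apart, and the part of RNA selection in these differences was not tested.

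**Figure D3:**
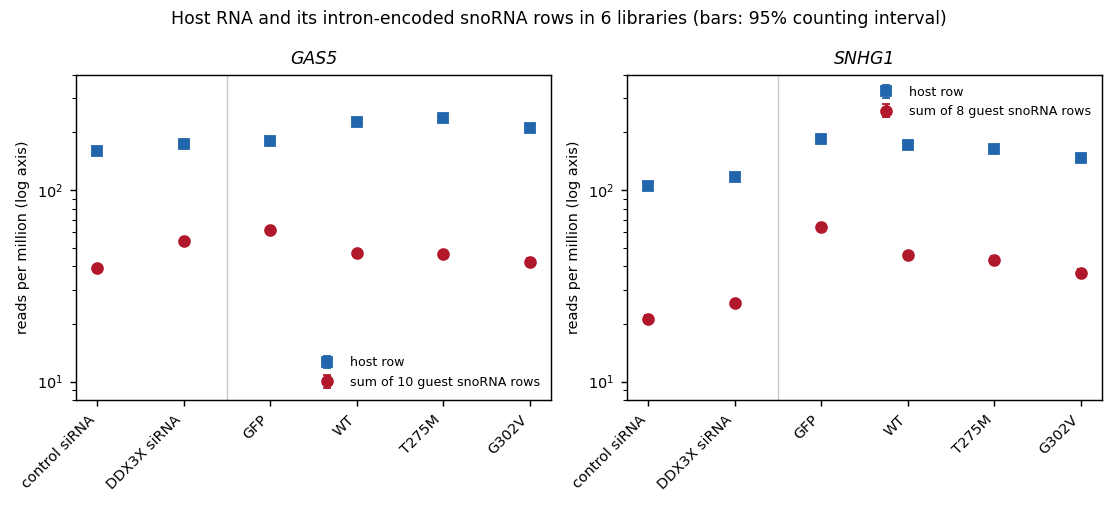
RPM (vertical log axes) of the host entry (blue squares) and of the summed guest snoRNA entries (red circles) of GAS5, left, and SNHG1, right, in the 6 libraries, with 95% counting intervals mostly smaller than the symbols. GAS5 is higher and its guests are lower with the 3 constructs than with GFP, and SNHG1 and its guests are both highest with GFP.

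Other host genes were read beside the 7. Of 16 other noncoding hosts listed, 14 were found and 12 were tested in each comparison. SNHG15 was at 48.6 RPKM with control siRNA, 46.5 with DDX3X siRNA, 65.3 with GFP, 109 with WT, 98.1 with T275M and 64.4 with G302V. SNHG17 likewise stood highest with WT and T275M in the plasmid arm, at 32.5 with GFP, 55.1 with WT, 51.1 with T275M and 32.8 with G302V. Like SNHG12, both were above GFP with WT, at 0.73 (0.67 to 0.80) and 0.74 (0.67 to 0.82), and lower with G302V than with WT, at -0.75 (-0.82 to -0.68) and -0.73 (-0.82 to -0.65). ZFAS1 was higher than GFP with all 3 constructs, at 65.7 RPKM with GFP and 81.8, 86.9 and 79.1 with WT, T275M and G302V, as was GAS5. SNHG3, at 52.6 RPKM with GFP and 41.1, 44.3 and 50.4 with the constructs, stood below GFP with each, as did SNHG1. The medians of the 12 were 0.067 with DDX3X siRNA, 0.020 with WT, -0.089 with T275M and -0.042 with G302V against their controls.

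The 43 protein-coding hosts, mostly genes of ribosomal proteins and translation factors, had a lower median than the 7 noncoding hosts in all 4 comparisons with a control. It was -0.10 with DDX3X siRNA, -0.036 with WT, -0.11 with T275M and -0.091 with G302V, and the 7 were at 0.12, 0.14, 0.12 and -0.0075. With DDX3X siRNA, 34 of the 43 had an interval below 0 and 8 above, beside 40.1% and 32.8% of all genes. The counts below and above 0 were 25 and 8 with WT (21.3% and 41.1% of all genes), 34 and 5 with T275M (23.4% and 44.2%) and 32 and 6 with G302V (26.3% and 35.1%). None passed 1.5-fold in any of the 8 comparisons. Counting intervals narrow with more reads. These hosts had from 2236 reads (TAF1D with G302V) to 612983 (EEF2 with DDX3X siRNA), whereas genes with as few as 10 reads were tested. The shares of all genes are thus not from genes of like depth. The values of this list still hold the trend with level and length, and its part in them was not tested. TAF1D was the highest of them with WT (0.46) and with T275M (0.48), EIF4A2 with DDX3X siRNA (0.23) and TPT1 with G302V (0.22).

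**Figure D4:**
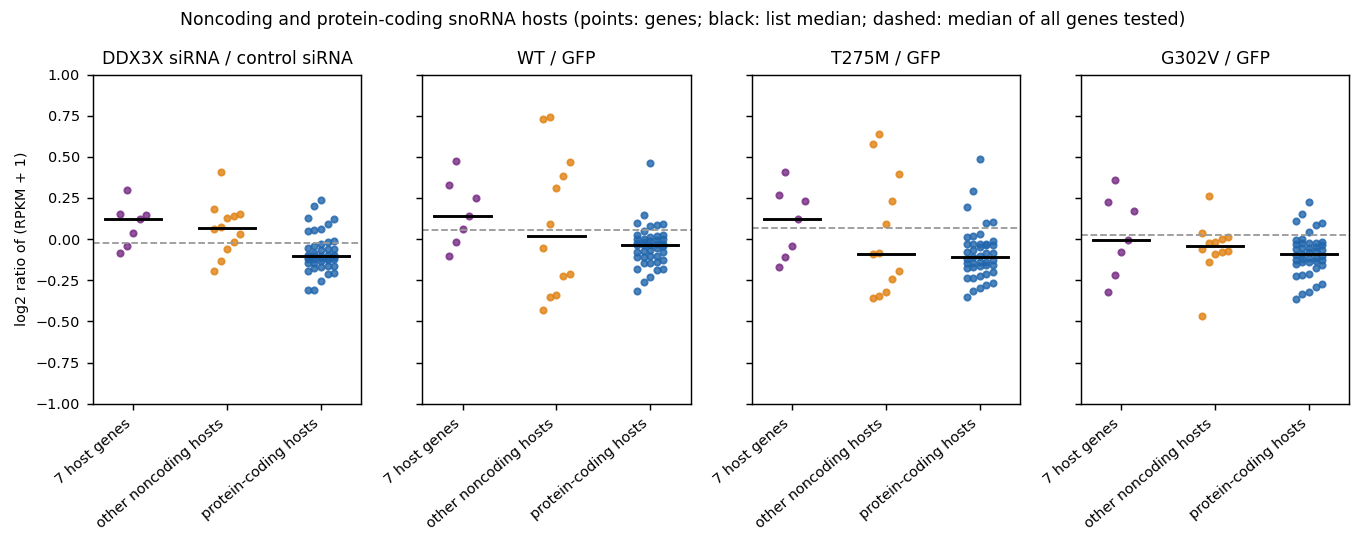
Log2 ratio of (RPKM + 1), vertical axes, of the 7 noncoding host genes, the other noncoding hosts tested and 43 protein-coding hosts in 4 comparisons with a control, 1 point per gene, with a black line at each list's median and a dashed line at the median of all genes tested. The protein-coding hosts gather below the dashed line, with medians from -0.11 to -0.036, and the other noncoding hosts spread to both sides of it with WT and T275M.

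Genes of the decay pathway that acts on these hosts were read next. Of 16 NMD factors, SMG1, the kinase that phosphorylates the NMD helicase UPF1, was past 1.5-fold with DDX3X siRNA, at 18.0 RPKM beside 10.3 with control siRNA (0.75, 0.72 to 0.77). SMG1 was also higher with G302V (9.61 RPKM) than with GFP (6.005), WT (5.99) or T275M (7.17), and it was lower with GFP than with control siRNA (-0.69, -0.73 to -0.65). It was the only NMD factor past 1.5-fold in any of the comparisons. The SMG1 entry is 16065 bases long, and the part of the trend with level and length in its ratios was not tested. Medians of the 16 were 0.061 with DDX3X siRNA, 0.0089 with WT, 0.035 with T275M and -0.026 with G302V.

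Among 8 mRNAs known as NMD targets, 3 were past 1.5-fold above GFP with WT, namely GADD45A, ATF3 and DDIT3, where 2.21% of all genes were past it in either direction. GADD45A, a growth arrest gene, was at 13.1 RPKM with GFP, 32.1 with WT, 36.4 with T275M and 23.5 with G302V. ATF3 was at 23.8, 39.6, 46.7 and 38.1 in the same order. ATF4, the stress-response transcription factor, was at 453 RPKM with control siRNA and 270 with DDX3X siRNA (-0.74, -0.76 to -0.73), where no host was lower than -0.082. Against GFP, ATF4 was at -0.021 with WT, -0.23 with T275M and -0.36 with G302V. GADD45B was higher than GFP with WT (0.33) and T275M (0.24) but lower with G302V (-0.38, -0.58 to -0.18). With G302V against WT, GADD45B (-0.71) and DDIT3 (-0.59) were past 1.5-fold lower, where 1.76% of all genes were past it in either direction. The medians of the 8 were -0.17 with DDX3X siRNA, 0.26 with WT, 0.30 with T275M and 0.15 with G302V. The genes of 8 core proteins of snoRNA particles were all lower with DDX3X siRNA and with G302V than in the control, with medians of -0.13 and -0.25, and none was past 1.5-fold. All 8 intervals were below 0 in both, beside 40.1% and 26.3% of all genes tested. These 8 genes had 2299 reads or more in every library, so that small differences leave the interval. With WT their median was -0.077 and with T275M it was -0.25.

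The mean profile of the 7 hosts, centered per gene on the log2 scale, was -0.19 with control siRNA, -0.094 with DDX3X siRNA, -0.00077 with GFP, 0.16 with WT, 0.10 with T275M and 0.017 with G302V. No host lay as close to this mean as the genes named next, and the root mean square distance ranged from 0.10 for SNHG5 to 0.22 for SNHG7. Among 6937 other genes with a mean of 10 RPKM or more, the 5 closest over the 6 libraries were RNF185 (root mean square difference 0.015), DEDD (0.023), ARHGDIG (0.025), PCGF6 (0.026) and IMMP1L (0.029). RNF185, for example, was at 13.3, 13.7, 15.03, 16.96, 16.1 and 15.1 RPKM in control siRNA, DDX3X siRNA, GFP, WT, T275M and G302V. With 6 libraries and this many candidates a close profile is a description only.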

How the data were processed

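RNA was extracted from 6 groups of HEK293T cells with 1 library each, prepared with the TruSeq RNA v2 kit and sequenced on an Illumina instrument. Per the submitters' processing notes, reads were trimmed with cutadapt and aligned with BWA 0.5.5, and the build was hg19 (GRCh37). The authors deposited 1 table per library with the RPKM of 39618 annotated transcripts. The depth was not stated in the tables. Low RPKM values multiplied by transcript length were whole multiples of 1 read (100% of the low entries within 0.1), which gave 43720000 to 180870000 reads per library and the reads behind each value. No count test was run, since a group was 1 library.

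Log2 ratios of RPKM + 1 were computed in Python 3.11.15 with pandas 2.3.3, numpy 2.4.6 and scipy 1.17.1 with exact Clopper-Pearson 95% intervals of the read shares, which cover counting error only. Genes needed 1 RPKM and 10 reads in 1 library of a pair. The script was tested on simulated data. The members and gene lists (other noncoding hosts, protein-coding hosts, guest snoRNAs, NMD factors, NMD target mRNAs, snoRNP core proteins and cell type markers) were chosen with earlier results of these data known. Named from the lists were mostly genes past 1.5-fold in a comparison or with its highest or lowest ratio. Not all such genes are named, so an unnamed gene can be past 1.5-fold. Further hosts were named after their values were seen. The 5 genes closest to the mean host profile were named by root mean square difference. Hosts, starts and frames came from GENCODE v44 lifted to GRCh37, and guests from the coordinates in the tables. The first frame of GAS5 is not reported here. Older symbols were matched through RefSeq accessions, but the search for starts did not use this match. Figures were drawn with matplotlib 3.10.9. Alternatives were the pseudocount, the filter, the scaling, the unit, the transcript per symbol, removal of a trend with level and length, the 1.5-fold limit and thinning of the DDX3X siRNA library.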

Additional observations from a re-analysis of the deposited data

How the results depend on the processing

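Each comparison was repeated with other pseudocounts, filters, scalings, units, transcripts per symbol and a removed trend with level and length. The median of the 7 hosts was set against the counting interval of the 1 host that held it. It stayed within that interval in 65 alternatives and left it in 8. With DDX3X siRNA it was 0.17 by median-ratio scaling, 0.25 with the trend removed and 0.087 with the library thinned. With T275M against GFP it was 0.062 by median-ratio scaling and 0.28 with the trend removed, and with G302V against GFP 0.19 with the trend removed. The trend removal also turned the median to 0.0052 for T275M against WT and to 0.058 for G302V against WT. For GFP against control siRNA the trend removal brought it to 0.025, still inside the interval of SNHG12 (0.021 to 0.25), the host that held the median. At 1.5-fold, 1 host was past the limit for G302V against WT and 1 for GFP against control siRNA, where none was past 2-fold. SNHG12 with G302V against WT came inside 1.5-fold at -0.54 with a pseudocount of 10 RPKM and at -0.55 with the trend removed, and SNHG1 with GFP against control siRNA stayed past it in every alternative. Of the single hosts, 451 values stayed within their interval, 51 left it and 9 whose interval left out 0 changed sign. Sign changes of values whose interval held 0 are not among the 9. With the trend removed, the reversed values were 0.059 for SNHG5 with DDX3X siRNA, 0.046 for SNHG8 with T275M against GFP, 0.0052 for SNHG1 with T275M against WT, 0.017 for GAS5 and 0.058 for SNHG5 with G302V against WT, and -0.035 for SNHG8 with GFP against control siRNA. With the longest transcript they were -0.031 for SNHG7 with WT, 0.019 for SNHG8 with T275M and -0.019 for SNHG7 with G302V, each against GFP. For the long SNHG7 transcript other bases are counted, and elsewhere the cause was not tested. No paired analysis was possible because each group is 1 library. With 1 library per group, the spread between cultures is unknown, and depth limits SNHG12 and the guest snoRNAs most, with 760 reads for SNHG12 and 9 for the lowest guest of SNHG5.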
